A study of Mus musculus with 4 samples.

Results

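The cytochrome P450 genes of the mouse were described across a map of trimethylated lysine 4 of histone H3 (H3K4me3) in heart, a histone mark found at the starts of active genes. Members were the protein-coding genes of GENCODE M21 on chromosomes 1 to 19 and X whose symbol begins with Cyp and a digit, whatever their values. There were 100 of them among 21670 protein-coding genes, in 17 families and on 15 chromosomes. A gene was called marked where a peak overlapped, by at least 1 bp, the stretch within 1000 bp of a start of any of its protein-coding transcripts.

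The tissue was heart from 2-month-old female mice of the strain B6CASTF1/J. The strain name is that of a first-generation cross of C57BL/6J with the wild-derived CAST/EiJ strain. There were 4 libraries from 2 pools, named G and H, which the labels give as biological replicates 1 and 2. Each pool joined 2 heart biosamples and had 2 technical replicates. All libraries carry 1 donor record, so the spread between pools is that between these samples and may be technical. The study had no treatment, no mutant and no other tissue, so the comparisons here run between groups of genes and between pools, with no test between conditions.

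Cytochrome P450 enzymes hold a heme group and insert an oxygen atom into their substrates with electrons passed on by P450 reductase or, in mitochondria, by ferredoxin. Enzymes of families 1 to 3 mostly clear drugs, toxins and plant compounds, chiefly in liver, and many of their genes stand in clusters of close copies. Other families make and break down cholesterol, bile acids, steroid hormones, vitamin D, retinoic acid and fatty acids, and several of the fatty acid products act on blood vessels and heart muscle.

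The values came from 4 peak lists on the mouse build mm10. The list of both pools called replicated, with 24996 peaks, is the one meant below unless another is named. The pseudoreplicated list of both pools held 26412 peaks, pool G's own list 24826 and pool H's own list 21505. The height of a peak is the authors' signal value, read here as a fold enrichment over control, and heights are ranked only within a list. Defining markers of heart tissue were marked in all 4 lists, namely 6 of 6 for cardiomyocytes, 4 of 4 for endothelial cells and 4 of 4 for fibroblasts. Of the markers of cells known for high P450 levels, 0 of 6 for hepatocytes and 0 of 4 for adrenal cortex were marked in any list. In this bulk tissue, a mark in few cells and a weak mark in many cells cannot be told apart.

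Of the 100 members, 21 were marked (21.0%), against 63.0% of all protein-coding genes. The same 21 were marked in the pseudoreplicated list of both pools, where the share over all genes was 63.4%, and in pool G's list, where it was 63.4%. Pool H's list marked 20 of them, without Cyp26a1, against 61.3% of all genes. Thus 20 members were marked in all 4 lists, and 79 were marked in none.

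The promoters themselves differed in their content of CG dinucleotides, the sites of DNA methylation, and a few are printed here to show that range. Each spans 300 bases from RefSeq's table for GRCm38.p6 (mm10), which held 77 of the 100 members, and CG is in capitals. Most of the bases lie upstream of the start in that table, which can differ from the GENCODE start used elsewhere here. At Cyp3a11, for example, more of the printed bases lie downstream of the GENCODE start than upstream of it. First come a cholesterol enzyme, a vitamin D enzyme and 2 neighbours of the fatty acid family Cyp4f. Cyp51, Cyp2r1 and Cyp4f13 were marked and hold 28 CG, 22 CG and 6 CG, and the unmarked Cyp4f14 holds 3 CG.
Cyp51, mm10 chr5:4104648-4104947, minus strand: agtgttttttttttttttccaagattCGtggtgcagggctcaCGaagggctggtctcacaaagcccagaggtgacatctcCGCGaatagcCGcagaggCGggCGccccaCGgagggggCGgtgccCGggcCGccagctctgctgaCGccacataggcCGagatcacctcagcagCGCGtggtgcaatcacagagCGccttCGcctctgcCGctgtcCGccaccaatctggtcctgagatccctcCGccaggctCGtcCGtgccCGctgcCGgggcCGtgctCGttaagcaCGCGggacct
Cyp2r1, mm10 chr7:114562923-114563222, minus strand: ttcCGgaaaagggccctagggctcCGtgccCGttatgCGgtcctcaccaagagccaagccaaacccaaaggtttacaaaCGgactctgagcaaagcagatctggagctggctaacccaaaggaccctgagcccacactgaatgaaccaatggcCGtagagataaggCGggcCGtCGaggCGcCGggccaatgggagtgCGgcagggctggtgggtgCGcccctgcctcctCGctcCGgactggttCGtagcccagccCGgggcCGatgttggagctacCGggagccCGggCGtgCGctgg
Cyp4f13, mm10 chr17:32947312-32947611, minus strand: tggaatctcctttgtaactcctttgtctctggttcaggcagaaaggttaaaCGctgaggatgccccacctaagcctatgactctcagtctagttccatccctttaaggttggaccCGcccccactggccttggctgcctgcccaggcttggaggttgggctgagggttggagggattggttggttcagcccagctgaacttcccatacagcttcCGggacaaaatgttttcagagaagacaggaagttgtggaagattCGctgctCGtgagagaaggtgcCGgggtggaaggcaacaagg
Cyp4f14, mm10 chr17:32917293-32917592, minus strand: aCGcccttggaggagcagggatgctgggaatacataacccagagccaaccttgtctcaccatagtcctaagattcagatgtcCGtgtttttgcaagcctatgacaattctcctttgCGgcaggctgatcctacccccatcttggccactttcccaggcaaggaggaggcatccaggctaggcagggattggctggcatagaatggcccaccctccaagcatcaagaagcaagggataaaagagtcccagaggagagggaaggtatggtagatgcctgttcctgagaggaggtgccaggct

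The next set comes from clustered xenobiotic genes, 3 of them neighbours on chromosome 4. Cyp2j6 and Cyp2j9 were marked with 4 CG and 6 CG in these bases, while Cyp2j5 and Cyp3a11 were unmarked and hold 2 CG each. A low CG count was thus seen at marked and at unmarked starts of this kind.
Cyp2j6, mm10 chr4:96553602-96553901, minus strand: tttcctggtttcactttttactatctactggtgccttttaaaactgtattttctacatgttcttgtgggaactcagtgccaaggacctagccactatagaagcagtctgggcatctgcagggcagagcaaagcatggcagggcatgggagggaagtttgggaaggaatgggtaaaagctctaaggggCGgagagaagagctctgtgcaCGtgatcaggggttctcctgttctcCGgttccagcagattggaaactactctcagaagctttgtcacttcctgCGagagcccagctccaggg
Cyp2j9, mm10 chr4:96591436-96591735, minus strand: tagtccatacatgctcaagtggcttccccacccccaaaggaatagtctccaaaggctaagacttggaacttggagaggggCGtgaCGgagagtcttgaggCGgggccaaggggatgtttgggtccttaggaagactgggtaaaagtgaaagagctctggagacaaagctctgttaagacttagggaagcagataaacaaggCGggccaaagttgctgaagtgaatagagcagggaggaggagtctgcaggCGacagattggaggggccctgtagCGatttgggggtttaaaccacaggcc
Cyp2j5, mm10 chr4:96664070-96664369, minus strand: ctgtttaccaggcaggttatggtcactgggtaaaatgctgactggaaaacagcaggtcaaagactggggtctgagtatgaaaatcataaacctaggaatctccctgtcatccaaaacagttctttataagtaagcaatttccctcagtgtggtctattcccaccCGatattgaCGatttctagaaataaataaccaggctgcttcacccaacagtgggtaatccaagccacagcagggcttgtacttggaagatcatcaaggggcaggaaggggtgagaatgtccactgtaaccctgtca
Cyp3a11, mm10 chr5:145879805-145880104, minus strand: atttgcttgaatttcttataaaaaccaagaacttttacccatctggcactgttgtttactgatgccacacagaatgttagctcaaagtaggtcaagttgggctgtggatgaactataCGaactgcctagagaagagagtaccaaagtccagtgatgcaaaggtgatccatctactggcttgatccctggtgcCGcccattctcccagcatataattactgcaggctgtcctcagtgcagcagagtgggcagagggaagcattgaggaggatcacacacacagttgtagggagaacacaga

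The contrast between classes was set by gene family, by substrate and by position. Clustered xenobiotic genes were members of families 1 to 3, without the vitamin D enzyme Cyp2r1 and the fatty acid enzyme Cyp2u1, that have a gene of their own family starting within 500 kb. Of these 53 genes, 5 were marked (9.43%), namely Cyp1a1, Cyp2s1, Cyp2d22, Cyp2j6 and Cyp2j9. Of the 37 sterol and fatty acid enzymes, 12 were marked (32.4%), with 6 of 16 among sterol enzymes (37.5%) and 6 of 21 among fatty acid enzymes (28.6%). These counts were the same in all 4 lists, and both classes lay below the 63.0% of all genes. The Cyp2j genes were kept with family 2, although they also act on arachidonic acid. Counted as fatty acid enzymes, a grouping added after the values were seen, they left 3 of 45 clustered xenobiotic genes marked (6.67%), against 14 of 45 sterol and fatty acid enzymes (31.1%). Among the remaining members, 1 of 6 xenobiotic genes without a family neighbour was marked, Cyp1b1, and 3 of 4 retinoic acid and orphan genes were.

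**Figure D1:**
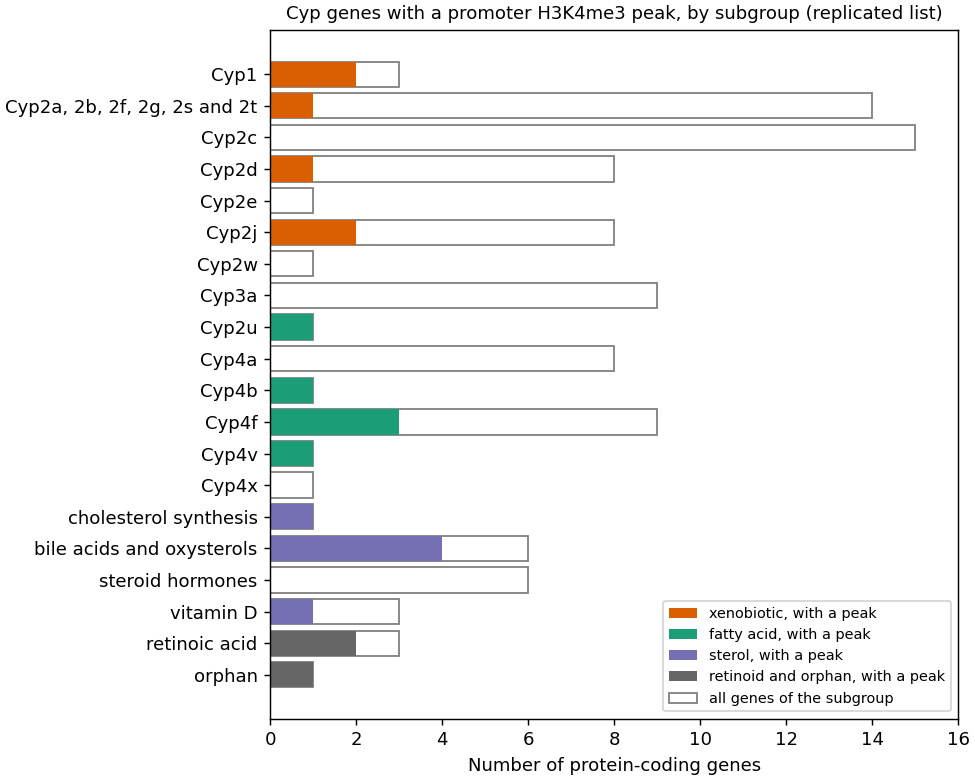
Marked and unmarked members of each P450 subgroup in the replicated list, as numbers of genes (filled part, marked; outline, all genes of the subgroup; colour, class). The subgroups Cyp2c, Cyp3a, Cyp4a and steroid hormones, with 15, 9, 8 and 6 genes, have no marked member. Of the bile acid and oxysterol genes, 4 of 6 are marked (66.7%), near the 63.0% of all protein-coding genes.

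Position and class overlapped. Over all classes, 10 of the 75 members with a family neighbour within 500 kb were marked (13.3%), against 11 of the 25 without one (44%). Within the fatty acid class, 4 of 18 clustered genes were marked, against 2 of 3 single genes. Within the sterol class, 0 of 2 clustered genes were marked, against 6 of 14 single genes. Among xenobiotic genes, 5 of 53 clustered ones were marked, against 1 of 6 single ones. Promoter CpG, described below, also differed along this split, with a median CpG ratio of 0.13 in clustered members and 0.34 in the others. High-CpG promoters stood at 1 of 75 clustered members and at 6 of 25 others. Class, clustering and CpG overlapped, and their parts in the mark cannot be told apart.

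Among marked genes, the median height of members was below that of all genes. The median fold enrichment was 10.1 over the 21 marked members, against 15.3 over all 13657 marked protein-coding genes, and 2 of the 21 members stood above that median. In pool G's list the medians were 14.4 for members and 18.2 for all genes, with 3 members above. In pool H's list they were 8.89 for members and 12.9 for all genes, with 2 members above. The 5 clustered xenobiotic genes had a median of 7.83, against 11.6 over the 12 sterol and fatty acid enzymes. Marked members also had less CpG, as 13 of 21 had a CpG ratio of 0.4 or more, against 12241 of the 13657 marked genes. Heights here and widths below were not compared at a like CpG ratio, so the part of CpG in them was not tested.

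**Figure D2:**
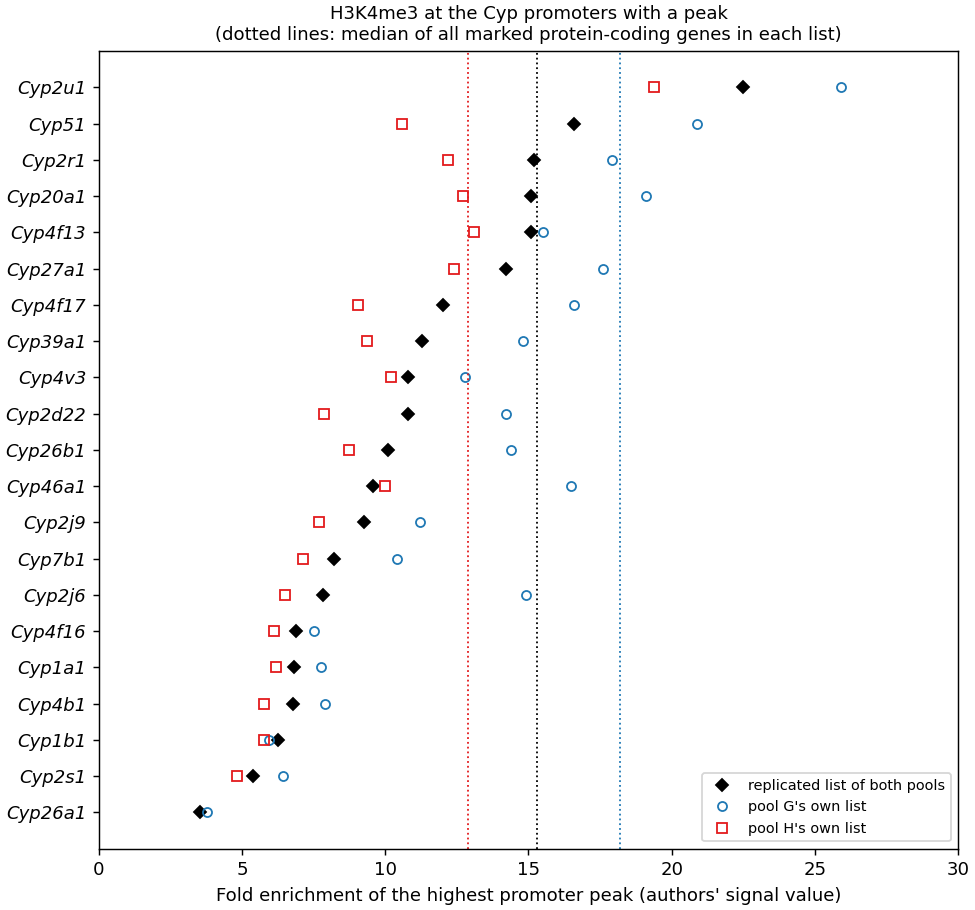
Fold enrichment of the highest promoter peak of each marked member (authors' signal value) in the replicated list, pool G's list and pool H's list, with members in order of the replicated value and dotted lines at the medians of all marked protein-coding genes (15.3, 18.2 and 12.9 in the same order of lists). Cyp2u1 is highest in all 3 lists, and Cyp26a1 has a point in the replicated list and in pool G's list but none in pool H's list.

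Of the cholesterol enzymes, Cyp51, the lanosterol demethylase of cholesterol synthesis, had a fold enrichment of 16.6 in the replicated list, 20.9 for pool G and 10.6 for pool H. It stood above the median of all marked genes in the replicated list and in pool G's list, and below it in pool H's list. Its peak spanned 1674 bp over the start on chromosome 5, from 4103538 to 4105211. Cyp51 is 1 of 18 genes of cholesterol synthesis with a mark, as given below.

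Among the enzymes of bile acids and oxysterols, 4 of 6 were marked (66.7%), near the 63.0% of all protein-coding genes. Cyp27a1, a mitochondrial sterol hydroxylase of the acidic bile acid pathway, had fold enrichments of 14.2 in the replicated list, 17.6 for pool G and 12.4 for pool H. Cyp39a1, an oxysterol hydroxylase, had 11.3, 14.8 and 9.36 in the same lists. Its peak also held the start of the solute carrier gene Slc25a27, and it was the only one of the 21 marked members to share its peaks with a start of another protein-coding gene. Cyp46a1, the cholesterol hydroxylase best known from neurons, had 9.59 in the replicated list, 16.5 for pool G and 10 for pool H. Cyp7b1, an oxysterol hydroxylase, was the lowest of the 4, with 8.2, 10.4 and 7.12 in these lists. The other 2 enzymes of the group were unmarked in every list. Cyp7a1, the rate-limiting enzyme of the classical bile acid pathway, lay 53096 bp from the nearest peak, and Cyp8b1, the sterol hydroxylase that sets the kind of bile acid made, also had no promoter peak.

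None of the 6 steroid hormone genes was marked in any list, Cyp11b2, the aldosterone synthase of the adrenal cortex, among them with the nearest peak 65856 bp away. Of the 3 vitamin D genes, Cyp2r1, a hydroxylase that makes the circulating form of the vitamin, was marked at 15.2 in the replicated list, 17.9 for pool G and 12.2 for pool H. Its peak of 1063 bp was narrower than the median domain of all marked genes, 1799 bp. Cyp27b1, which makes the active hormone in kidney, was unmarked, although a peak of 17.3-fold lay 5537 bp from its start at the promoters of Eef1akmt3 and Mettl1. Cyp24a1, which breaks the hormone down, was unmarked with a CG-rich promoter, as described below.

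Of the fatty acid enzymes, Cyp2u1, a hydroxylase of long-chain fatty acids, had the highest mark of all members. Its fold enrichment was 22.5 in the replicated list, 25.9 for pool G and 19.4 for pool H. The replicated value stood at percentile 92.2 of all marked protein-coding genes. The peak, from 131302009 to 131303672 on chromosome 3, also held the start of an antisense transcript, 4930534D22Rik, and the mark cannot be assigned to one of them.

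In the Cyp4f group, whose human counterparts break down leukotrienes and other fatty acids, 3 of 9 genes were marked (33.3%), against 63.0% of all protein-coding genes. Cyp4f13 had 15.1 in the replicated list, 15.5 for pool G and 13.1 for pool H. Cyp4f17 had 12.0, 16.6 and 9.06 in the same lists, and Cyp4f16 had 6.87, 7.53 and 6.10. The marks of Cyp4f13 and Cyp4f17 were thus higher than that of Cyp4f16 in each list. Cyp4v3, the mouse counterpart of a human gene mutated in a retinal dystrophy, had 10.8 in the replicated list, 12.8 for pool G and 10.2 for pool H. Cyp4b1, an enzyme best known from lung, had 6.78, 7.88 and 5.75, and was below Cyp4v3 in each list. All 8 Cyp4a genes, fatty acid hydroxylases of liver and kidney that answer to the receptor Ppara, were unmarked, and for Cyp4a14 the nearest peak was 148947 bp away. Cyp4x1 was also unmarked.

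Among clustered xenobiotic genes, Cyp2d22 had the highest mark, with 10.8 in the replicated list, 14.2 for pool G and 7.86 for pool H. Cyp2j9 and Cyp2j6 belong to the group that makes epoxides from arachidonic acid, compounds known to widen coronary vessels. Cyp2j9 had 9.26, 11.2 and 7.70 in these lists. Cyp2j6 had 7.83 in the replicated list, 14.9 for pool G and 6.51 for pool H, so that it stood above Cyp2j9 in pool G and below it in pool H. Their unmarked neighbour Cyp2j5 lay 72228 bp from the nearest peak, which was that of Cyp2j9. Cyp2s1, an enzyme of lung and other epithelia, was the lowest of the 5, with 5.38 in the replicated list, 6.44 for pool G and 4.82 for pool H. Its peak also held the start of a long noncoding RNA, Gm26707.

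Of the Cyp1 family, which is induced by dioxin through the aryl hydrocarbon receptor, Cyp1a1 and Cyp1b1 were marked and Cyp1a2 was not. Cyp1b1 had 6.25 in the replicated list, 5.93 for pool G and 5.75 for pool H. Cyp1a1 had 6.83, 7.77 and 6.2 in these lists, but its peak covered neither of its annotated starts. It ran from 57696214 to 57696934 on chromosome 9, over 721 bp, between 1399 and 679 bp upstream of the downstream start at 57697613. The upstream start at 57687928 lay 8286 bp away. The peak measured 904 bp for pool G and 648 bp for pool H, and the gene was not called with a window of 500 bp or with the start of the longest transcript alone.

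The bases around the summit of that upstream peak are shown because the region upstream of Cyp1a1 is known for sites of the aryl hydrocarbon receptor, whose core motif is GCGTG. On both strands the peak held 10 matches to GCGTG, each of which also contains a CG, and 35 CG in all. The 300 bases around the summit held 4 matches, marked in capitals as GCGTG or as its reverse complement CACGC. Among 15755 windows of the same length at the summits of promoter peaks, 48.9% held at least 1 match. At least as many matches as in this window were held by 1.73%. A match describes letters and is no evidence of binding.
Cyp1a1 upstream peak, mm10 chr9:57696472-57696771, plus strand: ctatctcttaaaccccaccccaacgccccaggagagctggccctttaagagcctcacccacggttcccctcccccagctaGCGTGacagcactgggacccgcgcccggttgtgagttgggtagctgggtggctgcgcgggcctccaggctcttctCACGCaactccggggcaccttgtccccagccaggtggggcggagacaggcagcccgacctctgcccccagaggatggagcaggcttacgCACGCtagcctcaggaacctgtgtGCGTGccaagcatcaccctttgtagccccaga

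Of the genes that clear retinoic acid, Cyp26b1 and Cyp26a1 were marked and Cyp26c1 was not. Cyp26b1 had 10.1 in the replicated list, 14.4 for pool G and 8.72 for pool H. Cyp26a1 had the lowest mark of all members, with 3.55 in the replicated list and 3.79 in pool G's list, and no promoter peak in pool H's list. Its −log10 q in the replicated list was 4.4. Cyp20a1, an orphan enzyme with no agreed substrate, had 15.1 in the replicated list, 19.1 for pool G and 12.7 for pool H, just under the median of all marked genes in the replicated list and above it in pool G's list.

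Width ranked the members differently from height. Peaks separated by gaps of 1000 bp or less counted as 1 domain, and the median domain was 1562 bp over marked members, against 1799 bp over all marked genes, with 6 of 21 members above that median. Cyp26b1 had the widest, with 7041 bp in the replicated list (percentile 99.0 of all marked genes), 7224 bp for pool G and 5957 bp for pool H, a mean of 6590.5 ± 895.9 bp (SD, n = 2 pools). Its first start, at 84593908 on the minus strand of chromosome 6, lay outside every peak. A peak from 84587275 to 84589573, with a fold enrichment of 9.16, covered 3 downstream starts, and the highest peak, from 84584682 to 84587147, covered none. With the longest transcript alone the gene was not called marked.

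Cyp2d22 came next with 5417 bp (percentile 97.2), and its pools differed most, with 5593 bp for pool G and 2364 bp for pool H, a mean of 3978.5 ± 2283.2 bp (SD, n = 2 pools). It had 3 promoter peaks with fold enrichments of 10.8, 6.5 and 3.12, and a further peak of 2.82 in the gene. Cyp1b1 spanned 3044 bp in the replicated list, with 3307 bp for pool G and 3001 bp for pool H, a mean of 3154 ± 216.4 bp (SD, n = 2 pools). At Cyp4b1 a peak of 378 bp and 6.78-fold covered the start and a wider one of 1669 bp and 3.47-fold lay downstream. All 6 members above the median width of all marked genes, with Cyp39a1 and Cyp27a1 the others, were below the median height of those genes in the replicated list. Only 2 of the 21 marked members stood above that height, so this does not relate width to height. In all 20 members marked in both pools the domain was wider in pool G than in pool H, with a median ratio of 1.23. Over all protein-coding genes marked in both pools, pool G was wider in 88.7%, with a median ratio of 1.13.

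**Figure D3:**
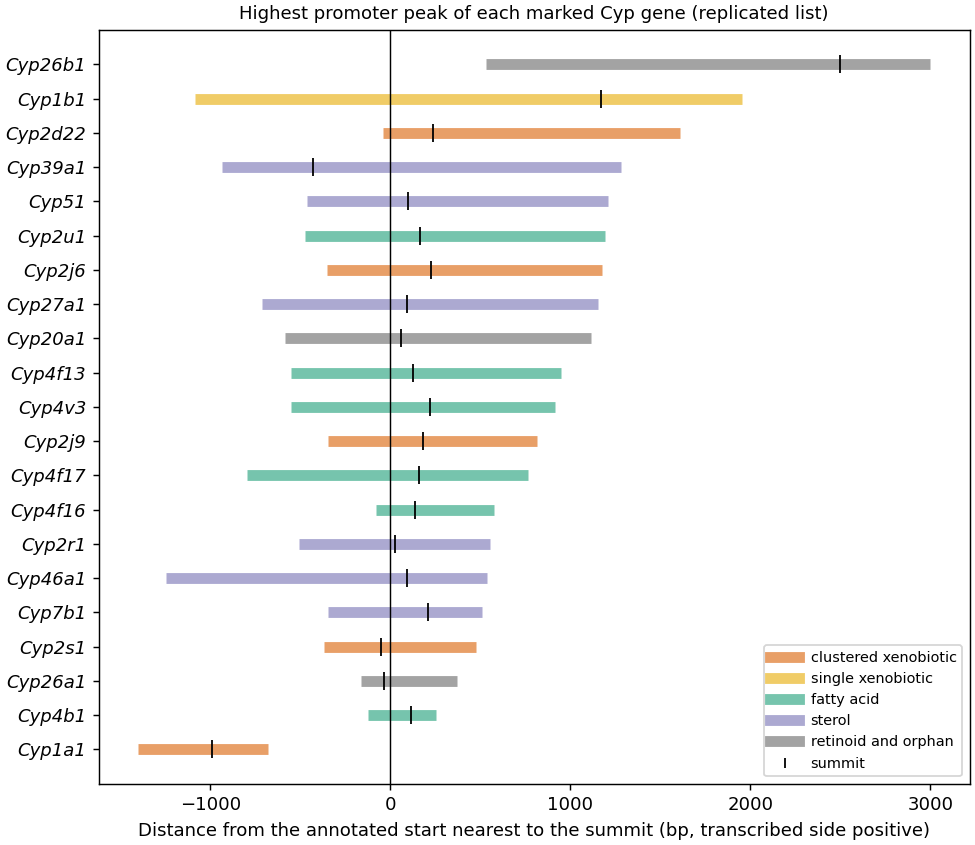
The highest promoter peak of each marked member in the replicated list (bars, coloured by class, with the summit as a tick), as distance in bp from the annotated start nearest to the summit, with the transcribed side positive. The Cyp1a1 peak lies wholly upstream of that start and the Cyp26b1 peak wholly downstream, and the other 19 bars cross 0.

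Within the highest peak, 19 of 21 members had a start (90.5%), against 90.4% of all marked genes, and Cyp1a1 and Cyp26b1 were the exceptions. The summit lay downstream of the start in 17 of 21 members (81.0%), with a median of 128 bp, against 77.6% and 143 bp over all marked genes. By these measures of position the members were close to all genes.

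The clusters were described as stretches of chromosome from the first to the last member. Their peak counts were not set beside a density over the whole genome. The Cyp2c cluster on chromosome 19 runs over 1180.3 kb with 14 genes and held 0 peaks, and the Cyp3a cluster on chromosome 5 runs over 768.0 kb with 8 genes and also held 0. The median share of unique words in promoter windows, a measure described below, was 75.6% in the Cyp2c cluster and 66.8% in the Cyp3a cluster. The nearest peak to Cyp3a11, a main drug-clearing enzyme of mouse liver, was 340307 bp away. The cluster of Cyp2a, 2b, 2f, 2g, 2s and 2t genes on chromosome 7 spans 1356.2 kb and held 2 peaks, with Cyp2s1 as the marked one of 13 members.

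In the Cyp2d cluster on chromosome 15, of 423.8 kb and 8 genes, 5 peaks were found, 3 of them at the promoters of Cyp2d22. In the Cyp2j cluster on chromosome 4, of 636.6 kb and 8 genes, the 2 peaks were those of Cyp2j6 and Cyp2j9. The Cyp4a, 4b and 4x cluster on chromosome 4 had 10 genes and 3 peaks over 541.4 kb, with Cyp4b1 as its marked member. The Cyp4f cluster on chromosome 17 held 9 peaks over 494.7 kb, with 3 of its 8 members marked and marks at 3 of 4 other protein-coding genes inside it. The chromosome 7 cluster was the other one of the 7 largest with such genes inside it, of which 1 of 6 was marked. The pair Cyp26a1 and Cyp26c1 and the pair Cyp1a1 and Cyp1a2 had 1 marked gene each, and the pair Cyp11b1 and Cyp11b2 had 0. Thus 7 of 10 clusters held a marked member.

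**Figure D4:**
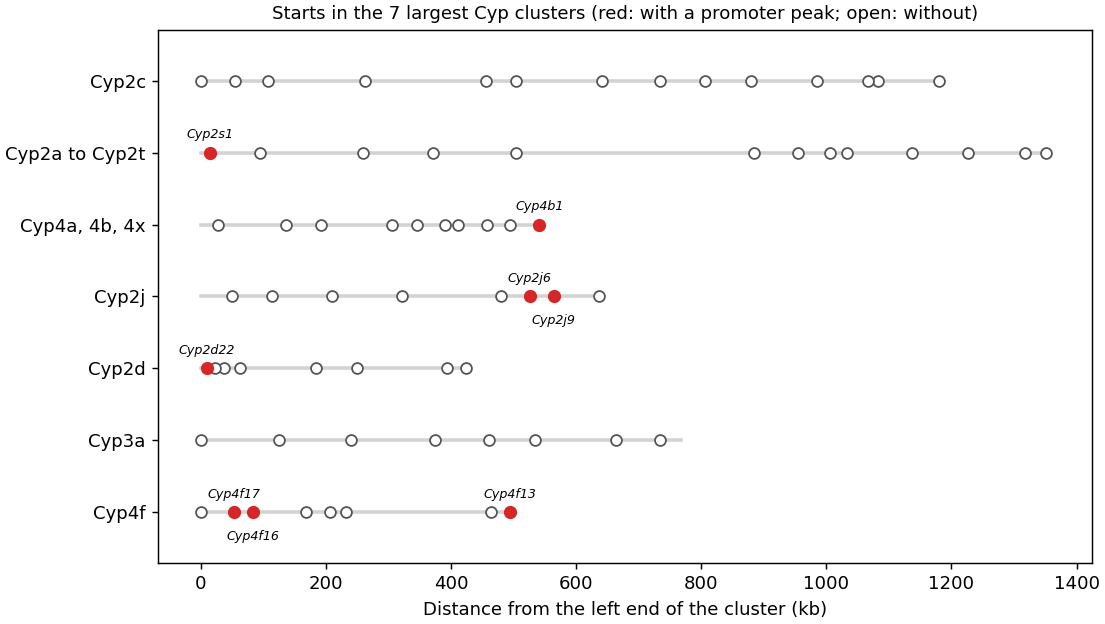
Starts of the members in the 7 largest P450 clusters, as distance in kb from the left end of each cluster, filled where the gene is marked in the replicated list and open where it is not. Cyp2c and Cyp3a have no filled point, and the other 5 clusters have 1 to 3.

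The unmarked members had their nearest peak at a median distance of 129235 bp, against 73493.5 bp over the other 7934 unmarked protein-coding genes. Their distances ran over 3908 to 604649 bp. Beyond 10 kb stood 73 of 79 members (92.4%), against 86.4% of the other unmarked genes, and beyond 100 kb 45 members (57.0%), against 43.4%. Under a CpG ratio of 0.2, a measure described below, the medians were 161041.5 bp for 58 unmarked members and 141239.5 bp for 4024 other unmarked genes. The nearest outside the window was Cyp4f18, with a peak of 7.89-fold across the downstream end of the gene, at 3908 bp. The peak of Cyp1a1 at 679 bp was the farthest one inside the window. Cyp2w1, an enzyme best known from tumours and fetal gut, had a peak of 3.86-fold 6904 bp away at the promoter of Cox19. Cyp4f14 lay 7121 bp from a peak of 7.18-fold across the downstream end of Cyp4f13, and Cyp26c1 lay 7287 bp from one of 3.94-fold. Cyp2e1, the enzyme of ethanol and acetaminophen breakdown, had its nearest peak 57918 bp away, at 3.75-fold, near Zfp941.

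CpG content was compared because H3K4me3 is known to follow CpG islands. The ratio of observed to expected CpG was taken within 1000 bp of each start, and a gene with several starts took its highest. It had a median of 0.15 over members, against 0.51 over all protein-coding genes. A promoter was called high-CpG at a ratio of at least 0.6 with a GC share of at least 0.5. Of the 7 members with such a promoter, 6 were marked, against 96.7% of all genes with one, and the exception was Cyp24a1. Of the 93 low-CpG members, 15 were marked (16.1%), against 46.0% of all low-CpG genes.

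Low-CpG genes span a wide range, so the share was also taken in narrower steps. Under a ratio of 0.2 stood 59 members, of which Cyp4f16 was the marked one (1.69%), against 4.04% of all genes in that range. Between 0.2 and 0.3, 5 of 19 members were marked, against 18.4% of all genes, and between 0.3 and 0.4, 2 of 7, against 45.0%. Between 0.4 and 0.6, 6 of 7 members were marked, against 86.2% of all genes, and from 0.6 up, 7 of 8, against 96.5%. For a total, the step under 0.2 was split at 0.1, with 1.19% of all genes marked below 0.1 and 4.84% above. If each member carried the share of all genes in its step, 22.3 members would be marked, and 21 were. By class, the count taken from all genes was 4.81 for clustered xenobiotic genes, where 5 were marked, 7.96 for sterol enzymes, where 6 were, and 4.04 for fatty acid enzymes, where 6 were. The 63.0% background is therefore that of a set of promoters with more CpG than these, and read by CpG step the members' total was close to that of all genes.

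**Figure D5:**
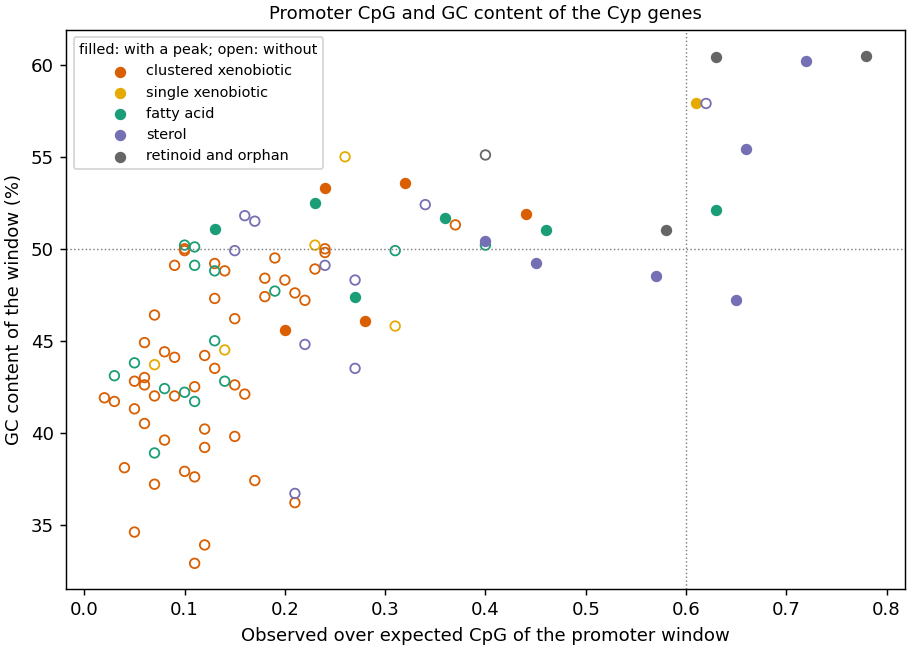
Observed over expected CpG ratio (x axis) and GC content in percent (y axis) of the promoter window of each of the 100 members, coloured by class, filled where marked in the replicated list and open where not, with dotted lines at the bounds of a high-CpG promoter. Under a ratio of 0.2, 1 of 59 members is filled, and from 0.4 up 13 of 15 are, against 92.6% of all genes from 0.4 up. For a member with several starts, the window with the highest ratio is plotted.

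Motifs were counted on both strands of the 300-base promoters of RefSeq, for 16 marked and 61 unmarked members and 16426 protein-coding genes. Marked members had a median of 13.0 CG, against 2.0 in unmarked members and 14.0 in all genes. The TATA-box letters TATAAA stood in 18.8% of marked members, 49.2% of unmarked members and 12.7% of all genes. By class, they stood in 57.4% of clustered xenobiotic members (27 of 47) and 7.69% of fatty acid members (1 of 13). They also stood in 2 of 8 sterol, 1 of 5 single xenobiotic and 2 of 4 retinoic acid and orphan members. Clustered xenobiotic genes thus made up 27 of the 33 members with these letters. The part of class in the contrast of marked with unmarked members was not tested. GGGCGG, the core of Sp1 sites, which contains a CG, stood in 75.0% of marked members, 8.2% of unmarked members and 48.6% of all genes. GCGTG stood in 56.2%, 11.5% and 39.9% of the same sets, and CCAAT, the box bound by NF-Y, in 50%, 42.6% and 38.5%. The sets thus differed more in TATAAA and in motifs with a CG than in CCAAT.

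Because clustered P450 genes are close copies, reads from them may map to several places. In 10 members under 50% of the 31-base words of the promoter window were unique in the genome, Cyp3a41b with 9.7% and Cyp3a41a with 10.2% among them, and 0 of the 10 were marked. The median unique share was 99.2% in marked members and 87.1% in unmarked members, and the lowest marked one was Cyp4f16 with 72.8%. Among the 55 members with at least 90% unique words, 19 were marked, 34.5% in place of 21.0%. They included 5 of 22 clustered xenobiotic genes (22.7% in place of 9.43%), against 6 of 12 sterol enzymes and 4 of 11 fatty acid enzymes. The part of mapping in the unmarked calls was not tested.

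Of the genes that work with the P450 enzymes, 60 of 74 were marked over 6 lists, and the shares by list lay between 58.3% and 100%, beside 63.0% of all protein-coding genes. The electron donors were marked in 8 of 8, with Cyb5b, a mitochondrial cytochrome b5, at 24.2-fold and the cytochrome b5 reductase Cyb5r3 at 20.4-fold. Heme synthesis was marked in 8 of 9, with Cpox, a mitochondrial oxidase of the pathway, at 22.8 and with Alas2, its erythroid first enzyme, unmarked. All 18 genes of cholesterol synthesis were marked, with Hmgcs1, the synthase that forms HMG-CoA, at 20.8 and the sterol oxidase Msmo1 at 18.4. The pathway lists were chosen with results of the same data known.

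Of the regulators of P450 genes, 11 of 18 were marked (61.1%), near the share of all genes, with Nfe2l2, the factor of the oxidative stress answer, at 23.7 and Arnt, the partner of the aryl hydrocarbon receptor, at 23.5. Among the unmarked 7 were Nr1i2 and Nr1i3, the drug receptors PXR and CAR, the liver factor Hnf4a, the bile acid receptor Nr1h4, the steroid cell factor Nr5a1, and Ahrr, the repressor of the aryl hydrocarbon receptor. Nr1h4 had a peak of 3.98-fold in pool G's list and of 2.81-fold in the pseudoreplicated list of both pools. Of the retinoid genes, 7 of 12 were marked (58.3%), also near that share, with the reductase Dhrs3 at 17.3 and the receptor Rarg at 15.9, and Stra6, Aldh1a1, Crabp1 and Crabp2 were among the unmarked ones. Aldh1a1, a retinoic acid synthase, had a peak of 3.31-fold in pool G's list and of 2.64-fold in the pseudoreplicated list of both pools. Of the genes of eicosanoids and P450-fold enzymes outside the Cyp symbols, 8 of 9 were marked, with thromboxane synthase Tbxas1 at 15.5, at a promoter shared with Hipk2, and the epoxide hydrolase Ephx1 at 13.5, and without the lipoxygenase Alox15.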

How the data were processed

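Heart chromatin carrying H3K4me3 was immunoprecipitated and sequenced, with a fragment size range of 200 to 600 bp according to the labels. The deposited files used were 4 narrowPeak lists on mm10, 1 for each pool and 2 for both pools. Technical replicates of a pool share 1 alignment, so no value per library could be given. The caller, its version, its threshold, the control used, read length and depth are all not given in the sources used here, so no interval for depth was set. The authors' deposited signal value was taken to be a ratio to control, that is a fold enrichment. This reading is an assumption, as the column is not named. The −log10 q value and the summit position are also those of the authors, as deposited.

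Genes came from GENCODE M21, and a gene took the fold of its highest promoter peak and the width of its widest joined domain (gaps up to 1000 bp). Members, classes and lists were chosen with earlier results of these data known, and all counts are descriptions with no test. Genes named were every marked member, the 5 unmarked members nearest to a peak, the unmarked members Cyp2e1, Cyp2j5, Cyp3a11, Cyp4a14, Cyp7a1 and Cyp11b2, and the 2 highest and all unmarked genes of each pathway list, some of which are not reported here. Others, such as Cyp8b1, Cyp24a1, Cyp1a2, Cyp4x1 and the gene pairs of the clusters, were added after their values were seen. Interval code was tested on simulated data against bedtools 2.31.1. Python 3.11.15, numpy 2.4.6, pandas 2.3.3, numba 0.67.0 and matplotlib 3.10.9 were used. Results were recomputed with each of the other 3 lists, with peaks of −log10 q 5 or more, windows of 500 and 2000 bp, the longest transcript, gaps of 0 and 3000 bp, CpG bounds of 0.5 and 0.7, and members without shared or repeated promoters.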

Additional observations from a re-analysis of the deposited data

How the results depend on the processing

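The number of marked members was 19 to 21 under every alternative tried. Cyp26a1 was lost in pool H's list and at a −log10 q of at least 5. Cyp1a1 was lost with a window of 500 bp and with the longest transcript, which also lost Cyp26b1, and Cyp39a1 was left out with shared promoters. With at least 90% unique words, a bound chosen after seeing the data, 19 of 55 members were marked (34.5%). Of clustered xenobiotic genes, 5 of 22 were (22.7%). The bound was met by 19 of the 21 marked members and by 36 of the 79 unmarked ones. Among clustered xenobiotic genes it was met by all 5 marked ones and by 17 of the 48 unmarked ones. The part of mapping in this was not tested. With the Cyp2j genes counted as fatty acid enzymes, also chosen after seeing the data, 3 of 45 clustered xenobiotic genes and 8 of 29 fatty acid enzymes were marked. Under the other alternatives the counts were 4 to 5 for clustered xenobiotic genes, 5 to 6 for sterol enzymes and 6 for fatty acid enzymes. The median fold enrichment of marked members was 14.4 in pool G's list, against 10.1 in the replicated list; the cause was not tested. At a CpG ratio of at least 0.7 only 2 members had a high-CpG promoter, against 7 at 0.6, because the bound is stricter. No paired analysis was possible because no test between groups of samples was made, and single technical replicates could not be left out because they share an alignment. Read depth is unknown, so weak marks under the threshold of the peak lists cannot be seen.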

Other observations

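Of the 79 unmarked members, 3 had a peak overlapping the gene (3.8%), against 546 of the other 7934 unmarked protein-coding genes (6.88%). The 3 were Cyp4f18 with 7.89-fold, Cyp26c1 with 3.94-fold and Cyp4f39 with 2.64-fold. Cyp4f18, a gene known from blood leukocytes, had its peak of 688 bp at 71988320 to 71989007 on chromosome 8, between 20619 and 21306 bp downstream of its first start. The gene ends at 71988482, within that peak. That peak was higher than the promoter peaks of Cyp1a1, Cyp1b1, Cyp2j6, Cyp2s1, Cyp4b1, Cyp4f16 and Cyp26a1 in the same list.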
